A study of Mus musculus with 17 samples.

Results

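The 7 genes described here form 3 ligand and receptor axes through which nerve cells and myeloid cells exchange signals: Csf1, Il34 and their receptor Csf1r, Trem2 with its adaptor Tyrobp, and Cx3cl1 with its receptor Cx3cr1. They were chosen by symbol, each symbol was matched to 1 Ensembl identifier in the deposited count tables, and they are 7 of the 78298 genes in those tables. All 7 were among the 23972 genes that passed the filter on low counts and were tested. Bulk RNA sequencing was done on lumbar dorsal root ganglia (L4 to L6), which hold the cell bodies of sensory neurons, from mice at day 30. The study crossed 2 variables, genotype and nerve injury. Chronic constriction injury (CCI) is a partial nerve injury made by loose ligatures, and sham-operated mice are its control.

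The 4 groups of libraries were compared. CCI KO held 3 libraries labelled knockout of Twik1, a two-pore potassium channel encoded by Kcnk1, after CCI (numbered 2, 3 and 4). CCI WT held 5 wild-type libraries after CCI, Sham KO held 4 libraries labelled knockout after sham surgery, and Sham WT held 5 wild-type sham libraries. No label states that the libraries of a group are separate animals, and each p-value reflects the spread among these libraries, which may be technical. The sources used here give neither the sex of the mice nor the deleted part of Kcnk1.

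CSF1 and IL-34 are secreted ligands of the same receptor tyrosine kinase, CSF1R, on which macrophages and microglia depend for survival and proliferation. Sensory neurons are known to induce Csf1 after peripheral nerve injury, and in the spinal cord this neuronal CSF1 acts on microglia. TREM2 is a lipid-sensing receptor of myeloid cells that has no signalling tail of its own and works through the adaptor TYROBP (DAP12). CX3CL1 (fractalkine) is a membrane-tethered chemokine of neurons and endothelium that is released by proteases, and CX3CR1 is its receptor on macrophages and microglia. In ganglia the cells that carry these receptors are mainly resident and recruited macrophages.

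On GRCm39, Csf1 (ENSMUSG00000014599) lies at chr3:107648364-107667806 on the minus strand and Il34 (ENSMUSG00000031750) at chr8:111423928-111532584 on the minus strand. Their receptor gene Csf1r (ENSMUSG00000024621) lies at chr18:61229714-61266535 on the plus strand. Trem2 (ENSMUSG00000023992) lies at chr17:48653429-48661175 and Tyrobp (ENSMUSG00000030579) at chr7:30113170-30117010, both on the plus strand. Cx3cr1 (ENSMUSG00000052336) lies at chr9:119877749-119898945 on the minus strand and Cx3cl1 (ENSMUSG00000031778) at chr8:95498637-95509055 on the plus strand.

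The libraries held 52523183 to 73584232 counts in genes. Kcnk1 was still read in every library: it averaged 83.9 ± 5.36 counts-per-million (CPM, with library sizes scaled by TMM) in CCI KO, 114 ± 6.83 in CCI WT, 89.8 ± 18 in Sham KO and 127 ± 18.9 in Sham WT (SD, n = 3, 5, 4 and 5). Over both surgeries it was 0.47 ± 0.09 lower in the libraries labelled knockout on the log2 scale (a log2 fold change of -0.47 with its SE, edgeR adjusted p = 0.00746). Sham KO libraries 1 and 2 stood apart from their group. They had 141 and 103 CPM of Atf3, a transcription factor induced by axon injury, against 11.1 and 13.2 CPM in Sham KO libraries 3 and 4 and 9.42 to 16.8 CPM in Sham WT. Member results that rest on Sham KO are therefore given with and without these 2 libraries. A number in the names of the deposited tables is shared by all sham libraries and differs for each CCI group. What it marks is not given, and if it marks a batch, injury and batch cannot be told apart.

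The sequences before the start sites of Csf1 and Trem2 are shown because these are the ligand and the receptor with the largest fold changes after injury in wild type. Each run is the 250 bases upstream of the annotated start of the canonical transcript, read 5′ to 3′ on the gene's strand from GRCm39 with GENCODE M39 annotation. Csf1 lies at chr3:107667807-107668056 (minus strand) and Trem2 at chr17:48653179-48653428 (plus strand). Capitals mark matches on either strand. The patterns were GAGGAA (the core bound by PU.1, the transcription factor of the myeloid lineage), TGACGTCA (the cyclic AMP response element) and TGANTCA. The last, with any base at N, is a loose form of the site of AP-1, the dimer of Jun and Fos family proteins.
Csf1: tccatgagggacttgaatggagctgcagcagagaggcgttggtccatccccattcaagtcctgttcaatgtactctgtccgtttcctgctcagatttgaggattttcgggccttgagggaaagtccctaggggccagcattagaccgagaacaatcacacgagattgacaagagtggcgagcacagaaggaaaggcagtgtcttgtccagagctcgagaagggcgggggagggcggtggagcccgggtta
Trem2: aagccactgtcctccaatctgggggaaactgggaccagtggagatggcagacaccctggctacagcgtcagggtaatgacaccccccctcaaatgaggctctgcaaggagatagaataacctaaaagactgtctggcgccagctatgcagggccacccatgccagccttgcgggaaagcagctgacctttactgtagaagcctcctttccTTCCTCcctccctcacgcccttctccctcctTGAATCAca
The Trem2 window held GAGGAA on the minus strand at position -40 and TGAATCA, a match to TGANTCA with A at N, at position -9, counted from the start site. No match lay in the Csf1 window. Of 21770 promoters of protein-coding genes of the same length, 22.9% held GAGGAA, 6.17% TGANTCA with any base at N and 1.69% the cyclic AMP response element. GAGGAAGT (2.08% of promoters), which contains GAGGAA, and TATAAA (11.9%) were in neither of the 2 windows. A match of this kind is a run of letters and not a binding site, and the absence of one says nothing about the factor.

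Levels of different genes were compared per kilobase (kb) of merged exons. In CCI WT the mean levels were 13.6 ± 4.59 CPM per kb for Tyrobp, 10.3 ± 0.665 for Il34 and 8.23 ± 1.76 for Csf1 (SD, n = 5). Csf1r followed with 3.38 ± 0.884 CPM per kb, Cx3cl1 with 2.47 ± 0.196, Cx3cr1 with 0.750 ± 0.193 and Trem2 with 0.597 ± 0.256. In Sham WT the levels were 9.31 ± 2.31 CPM per kb for Tyrobp, 8.15 ± 0.506 for Il34, 3.13 ± 1.29 for Csf1, 2.13 ± 0.442 for Cx3cl1, 1.80 ± 0.401 for Csf1r, 0.334 ± 0.117 for Cx3cr1 and 0.169 ± 0.0434 for Trem2 (SD, n = 5). Per kb, Il34 was thus the ligand of CSF1R with the higher mean in both wild-type groups, and the gap between Il34 and Csf1 was smaller after injury. This order depended on the merged exon lengths, 3.81 kb for Il34 and 5.88 kb for Csf1. In CPM, Csf1 was above Il34 in CCI WT (48.4 and 39.1) and below it in Sham WT (18.4 and 31.1). Tyrobp and Il34 were within 1 SD of each other in both groups, as were Csf1r and Cx3cl1 in Sham WT. Trem2, at 30 to 260 counts a library, was the least abundant member.

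Injury in wild-type ganglia raised 5 of the 7 members past the threshold of an edgeR adjusted p of 0.05: Csf1, Il34, Csf1r, Trem2 and Cx3cr1. Over all genes tested, 3.06% passed in this comparison and 2.34% passed as higher. The median log2 fold change of the 7 members was 0.91, beside -0.0067 over all genes tested. Tyrobp and Cx3cl1 did not pass. The question behind this comparison is which parts of the neuron to macrophage signalling system are raised in the ganglion at day 30 of a constriction injury.

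**Figure D1:**
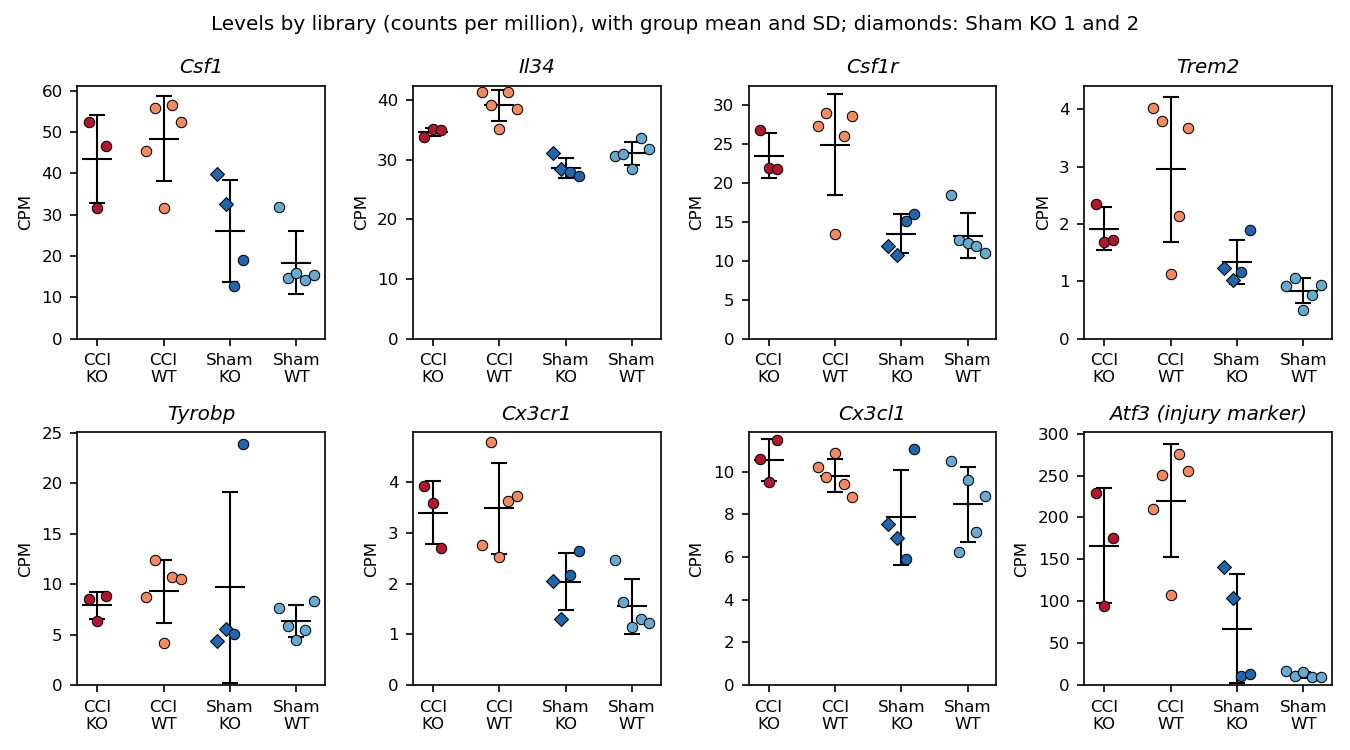
Levels of the 7 members and of the injury marker Atf3 in CPM (y axis, from 0) in each library (points) of the 4 groups (x axis, CCI KO, CCI WT, Sham KO, Sham WT); bars are the group mean and SD. Csf1 and Atf3 are high in Sham KO libraries 1 and 2 (diamonds, 39.9 and 32.5 CPM of Csf1), while Csf1r in the same libraries is among the lowest values (11.9 and 10.8 CPM).

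Csf1, the growth factor that nerve cells can supply to macrophages, had 45.5, 55.8, 31.6, 56.5 and 52.5 CPM in CCI WT libraries 1 to 5, against 31.9, 14.7, 15.8, 14.1 and 15.3 CPM in Sham WT libraries 1 to 5. CCI WT library 3 was the lowest of its group and Sham WT library 1 the highest of its own, and the groups overlapped only there. On the log2 scale Csf1 rose by 1.40 with an SE of 0.33 (edgeR adjusted p = 0.0343); errors of log2 fold changes given with ± are SEs. This call was the least secure of the 5. The adjusted p lay between 0.0118 and 0.0900 over the 17 fits that each left out 1 library, and passed the threshold in 8 of them. It was lost without Sham WT library 2, 3, 4 or 5, without CCI WT library 1, 2, 4 or 5 and without CCI KO library 4, with the fold change between 1.31 and 1.69 over all 17 fits.

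Il34, the second ligand of CSF1R, had 41.4, 39.2, 35.2, 41.3 and 38.4 CPM in CCI WT, against 30.6, 30.9, 28.4, 33.7 and 31.7 CPM in Sham WT. Every CCI WT library was above every Sham WT library, as was the case for 3.44% of all genes tested. The change was small beside that of Csf1, at a log2 fold change of 0.33 ± 0.07 (edgeR adjusted p = 0.00607).

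Csf1r, the receptor of both ligands, had 27.4, 29.0, 13.5, 26.1 and 28.7 CPM in CCI WT, against 18.4, 12.6, 12.2, 11.95 and 10.99 CPM in Sham WT. CCI WT library 3 lay within the range of Sham WT and the other CCI WT libraries lay above it. Csf1r changed by a log2 fold of 0.91 ± 0.19 (edgeR adjusted p = 0.0128). Exons of Csf1r share 1461 bases with Hmgxb3 on the opposite strand, and the library kit keeps no strand, so reads there could not be assigned to either gene.

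Trem2 had 4.03, 3.80, 1.13, 2.13 and 3.68 CPM in CCI WT, against 0.914, 1.06, 0.505, 0.751 and 0.932 CPM in Sham WT. The groups did not overlap, although CCI WT library 3 was close to the highest Sham WT library. The log2 fold change of 1.83 ± 0.32 (edgeR adjusted p = 0.00119) was the largest of the 7 members. Tyrobp, without which TREM2 does not signal, had 8.68, 12.4, 4.20, 10.7 and 10.5 CPM in CCI WT, against 7.63, 5.83, 4.49, 5.49 and 8.31 CPM in Sham WT. The lowest of these 10 values was in CCI WT library 3 and the 4 others of that group were above all Sham WT libraries. Its log2 fold change was 0.55 ± 0.45 and did not pass (edgeR adjusted p = 0.703).

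Cx3cr1 had 2.76, 4.80, 2.53, 3.63 and 3.74 CPM in CCI WT, against 2.47, 1.64, 1.14, 1.30 and 1.23 CPM in Sham WT. The groups did not overlap, and CCI WT library 3 and Sham WT library 1 were nearest to each other. Between CCI WT and Sham WT the log2 fold change of Cx3cr1 was 1.17 ± 0.25 (edgeR adjusted p = 0.00833). Its ligand Cx3cl1 had 10.2, 9.74, 10.9, 9.43 and 8.82 CPM in CCI WT, against 10.5, 6.21, 9.62, 7.17 and 8.87 CPM in Sham WT. These ranges overlapped widely, and the log2 fold change of 0.21 ± 0.16 did not pass (edgeR adjusted p = 0.643).

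In whole ganglia, more cells of a type and more RNA per cell cannot be told apart. Both libraries that stood out for Csf1r also stood out in the summed level of macrophage markers, to which Cd74, also a gene of antigen-presenting cells, gave the most. The summed level of 22 macrophage markers was 253 CPM in CCI WT library 3 and 343 to 468 CPM in the other CCI WT libraries, against 373 CPM in Sham WT library 1 and 187 to 202 CPM in the other Sham WT libraries. Without Cd74, left out after its values were seen, the sums over 21 markers were 135 CPM in CCI WT library 3 and 208 to 267 CPM in the other CCI WT libraries, against 176 CPM in Sham WT library 1 and 105 to 124 CPM in the other Sham WT libraries. CCI WT library 3 was the lowest of its group for 20 of the 22 markers, and Sham WT library 1 the highest of its group for 13 of 22. Their part in the differences of Csf1r, Trem2 and Cx3cr1 was not tested. Atf3 was 108 CPM in CCI WT library 3, the lowest of CCI WT. In Sham WT library 1 it was 16.8 CPM, the highest of Sham WT and below every CCI WT library.

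**Figure D2:**
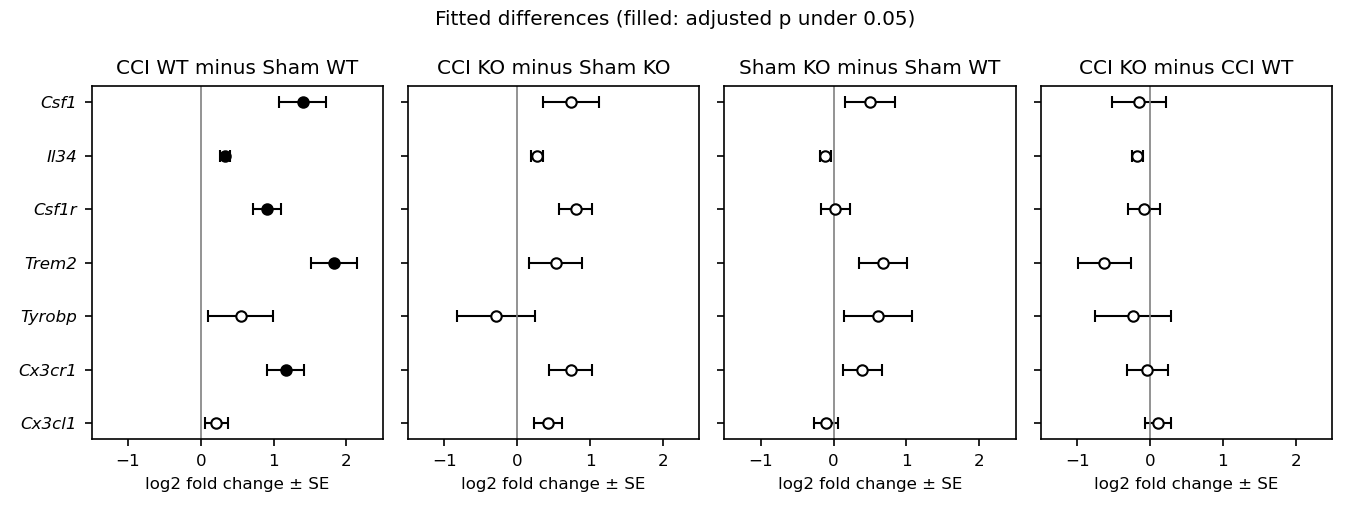
Log2 fold change with its SE (x axis) of the 7 members (y axis) in each of 4 comparisons from the edgeR fit; filled points passed an adjusted p of 0.05. All 5 filled points are in CCI WT against Sham WT, led by Trem2 at 1.83 and Csf1 at 1.40, and none passes in the other 3 comparisons.

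In the libraries labelled knockout, injury moved none of the 7 members past the threshold. Over all genes tested, 20 (0.0834%) passed in this comparison and 2068 reached an unadjusted p under 0.05. Csf1 had 52.3, 31.5 and 46.5 CPM in CCI KO libraries 2 to 4, against 39.9, 32.5, 12.7 and 19.0 CPM in Sham KO libraries 1 to 4. Sham KO libraries 1 and 2 were in the range of injured ganglia and library 4 in that of Sham WT. Sham KO library 3 was below the lowest Sham WT value of 14.1 CPM. The log2 fold change of Csf1 was 0.74 ± 0.38 (edgeR adjusted p = 0.633). Without Sham KO libraries 1 and 2 it was 1.45 ± 0.41 and still did not pass (edgeR adjusted p = 0.209), in a fit that called 0.578% of genes.

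Csf1r had 26.8, 21.9 and 21.8 CPM in CCI KO, against 11.9, 10.8, 15.1 and 16.1 CPM in Sham KO. All CCI KO libraries were above all Sham KO libraries, and the 2 injury-like sham libraries were at the bottom of theirs. Csf1r gave a log2 fold change of 0.80 ± 0.23 (edgeR adjusted p = 0.270), and 0.59 ± 0.28 without Sham KO libraries 1 and 2 (edgeR adjusted p = 0.540). It passed by DESeq2 (adjusted p = 0.0285), where no low-count filter was used (edgeR adjusted p = 0.00397) and without CCI WT library 3 (edgeR adjusted p = 0.0304).

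Il34 had 33.8, 35.1 and 35.0 CPM in CCI KO, against 31.1, 28.5, 27.96 and 27.2 CPM in Sham KO. Cx3cr1 had 3.93, 3.59 and 2.71 CPM in CCI KO, against 2.05, 1.30, 2.17 and 2.65 CPM in Sham KO. For both genes, as for Csf1r, the groups did not overlap, which held for 4.41% of all genes in the direction of higher after injury. It was a log2 fold change of 0.27 ± 0.08 for Il34 (edgeR adjusted p = 0.276) and 0.74 ± 0.30 for Cx3cr1 (edgeR adjusted p = 0.456). Without Sham KO libraries 1 and 2 these were 0.33 ± 0.10 and 0.50 ± 0.35 (edgeR adjusted p = 0.196 and 0.708).

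Trem2 had 2.35, 1.69 and 1.72 CPM in CCI KO, against 1.24, 1.03, 1.16 and 1.89 CPM in Sham KO. Sham KO library 4 lay above 2 of the 3 CCI KO libraries, and the log2 fold change was 0.53 ± 0.37 (edgeR adjusted p = 0.768). Cx3cl1 had 10.6, 9.53 and 11.5 CPM in CCI KO, against 7.54, 6.89, 5.92 and 11.1 CPM in Sham KO. Here too library 4 was the one Sham KO value in the range of CCI KO, and the log2 fold change was 0.42 ± 0.19 (edgeR adjusted p = 0.519). With Sham KO libraries 1 and 2 left out, Trem2 gave 0.33 ± 0.45 and Cx3cl1 0.31 ± 0.22 (edgeR adjusted p = 0.877 and 0.721).

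Tyrobp had 8.53, 6.38 and 8.79 CPM in CCI KO, against 4.34, 5.51, 5.03 and 23.8 CPM in Sham KO. The value of Sham KO library 4 was the highest of all 17 libraries, and without it the Sham KO values were all below CCI KO. The log2 fold change was -0.29 ± 0.54 with this library (edgeR adjusted p = 0.951) and 0.67 without it. Leaving out Sham KO libraries 1 and 2 instead, so that library 4 was 1 of 2 in its group, gave -0.87 ± 0.55 (edgeR adjusted p = 0.676). The same library had 1534 CPM summed over 9 neutrophil markers, against 25.9 to 424 CPM in the other 16 libraries, and 20.6 CPM over 9 lymphocyte markers, against 2.52 to 7.82 CPM. Its sum over 22 macrophage markers was 414 CPM, against 226 to 320 CPM in the other Sham KO libraries. Without Cd74 this sum was 240.5 CPM, against 137 to 157 CPM. Neutrophils and lymphoid cells with natural killer receptors also use TYROBP. The part of these cells, and of macrophages, in the level of Tyrobp was not tested.

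Genotype moved none of the 7 members past the threshold, either in sham ganglia, where 1% of genes passed, or after injury, where 0.684% did. Averaged over both surgeries, where 2.55% of genes passed, the count was also 0 of 7. In sham ganglia Csf1 differed by a log2 fold change of 0.50 ± 0.34 (edgeR adjusted p = 0.668). The sign turned to -0.21 ± 0.36 without Sham KO libraries 1 and 2. The level of Trem2 in Sham KO was above that in Sham WT in 3 of 4 libraries when set against the highest Sham WT value of 1.06 CPM, with a log2 fold change of 0.67 ± 0.33 (edgeR adjusted p = 0.444), and 0.88 ± 0.40 without Sham KO libraries 1 and 2 (edgeR adjusted p = 0.632). Tyrobp gave 0.61 ± 0.47 (edgeR adjusted p = 0.718), -0.36 without Sham KO library 4 and 1.19 ± 0.49 without Sham KO libraries 1 and 2 (edgeR adjusted p = 0.618). None of the 7 members passed in sham ganglia without libraries 1 and 2.

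After injury, Il34 was the member whose genotypes did not overlap. Its CCI KO values of 33.8 to 35.1 CPM lay below the CCI WT values of 35.2 to 41.4 CPM, as in 4.37% of genes tested, with the nearest values almost equal. Il34 differed by a log2 fold change of -0.17 ± 0.08 (edgeR adjusted p = 0.520), and -0.15 ± 0.05 averaged over both surgeries (edgeR adjusted p = 0.191; -0.17 ± 0.06 without Sham KO libraries 1 and 2, edgeR adjusted p = 0.238). Trem2 differed by -0.63 ± 0.36 (edgeR adjusted p = 0.680) and Csf1 by -0.16 ± 0.37 (edgeR adjusted p = 0.974).

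The test of whether injury acted differently in the 2 genotypes, the interaction, called no gene in edgeR, where 1408 genes had an unadjusted p under 0.05, while DESeq2 called 21 and limma-voom 4. For Trem2 the injury response in KO minus that in WT was -1.30 ± 0.49 on the log2 scale (unadjusted p = 0.0132, edgeR adjusted p = 0.734), and -1.503 ± 0.54 without Sham KO libraries 1 and 2 (edgeR adjusted p = 0.931). For Csf1 it was -0.66 ± 0.51 (edgeR adjusted p = 0.949) and 0.05 ± 0.47 without Sham KO libraries 1 and 2. That none of the members passed in the libraries labelled knockout and 5 in wild type is therefore not shown to be a difference between the genotypes.

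The ratio of ligand to receptor, taken per library from CPM per kb, described how the 2 sides moved together. Csf1 over Csf1r had a median of 2.44 (1.80 to 2.67) in CCI KO, 2.41 (2.08 to 2.94) in CCI WT, 2.63 (1.05 to 4.19) in Sham KO and 1.61 (1.46 to 2.17) in Sham WT. The Sham KO range was the widest, since libraries 1 and 2 combined high Csf1 with low Csf1r and the other 2 the reverse. Il34 over Csf1r had a median of 3.10 (2.43 to 3.10) in CCI KO, 2.93 (2.59 to 5.06) in CCI WT, 4.31 (3.27 to 5.10) in Sham KO and 4.73 (3.21 to 5.58) in Sham WT. The balance between the 2 ligands, Csf1 over Il34, had a median of 0.862 (0.581 to 1) in CCI KO, 0.885 (0.581 to 0.924) in CCI WT, 0.597 (0.294 to 0.832) in Sham KO and 0.313 (0.271 to 0.675) in Sham WT. The highest Sham WT ratio belonged to library 1.

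Cx3cl1 over Cx3cr1 had a median of 3.17 (3.12 to 4.98) in CCI KO, 3.05 (2.38 to 5.03) in CCI WT, 4.61 (3.20 to 6.20) in Sham KO and 6.48 (4.44 to 9.87) in Sham WT. Both injured groups had lower medians than their shams, with overlapping ranges. Trem2 over Tyrobp had a median of 0.0364 (0.0269 to 0.0380) in CCI KO, 0.0423 (0.0274 to 0.0640) in CCI WT, 0.0288 (0.0109 to 0.0393) in Sham KO and 0.0165 (0.0155 to 0.0252) in Sham WT. The ranges of CCI and sham overlapped in the libraries labelled knockout and not in wild type. The ratios are a description and were not tested, and their size depends on the exon lengths used.

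**Figure D3:**
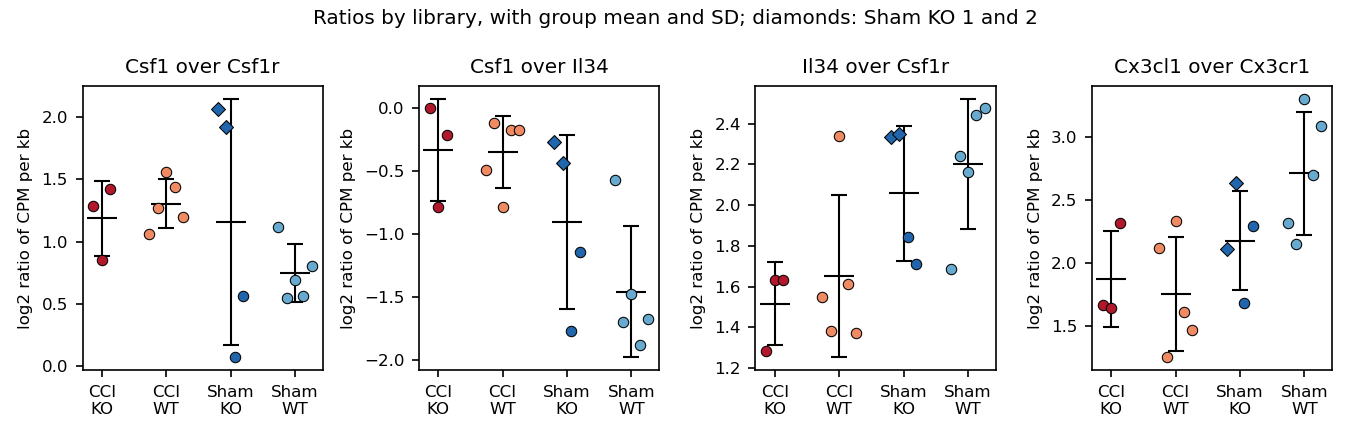
Log2 of the ratio of CPM per kb (y axis) for 4 pairs of members in each library (points) of the 4 groups (x axis), with the group mean and SD. Csf1 over Csf1r spreads from 1.05 to 4.19 (linear ratio) in Sham KO, the widest of the 4 groups, and Cx3cl1 over Cx3cr1 is lower in both CCI groups than in their shams by median.

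Whether libraries with more ligand also had more receptor was asked within groups, as the correlation of deviations from the group means over 17 libraries, for 8 pairs. P-values came from 100000 permutations of libraries within groups and were adjusted over the 8 pairs. Csf1 and Csf1r gave r = 0.323 (adjusted permutation p = 0.406; rho = 0.201, adjusted permutation p = 0.690). Without Sham KO libraries 1 and 2, r was 0.807 over 15 libraries (adjusted permutation p = 0.0134; rho = 0.786). Those 2 libraries were set apart by Atf3, the gene most like Csf1 across the libraries (r = 0.951), and they combined high Csf1 with low Csf1r. Leaving them out is thus a choice tied to Csf1, and no conclusion is drawn from that p-value. With 1 library left out, r ran from 0.0896 without CCI WT library 3 to 0.513 without Sham KO library 3, and was 0.110 without Sham WT library 1. Without the 2 libraries farthest from the median of Csf1, r was 0.321 (adjusted permutation p = 0.537).

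Il34 and Csf1r gave r = 0.198 and rho = -0.238 (adjusted permutation p = 0.596 and 0.690), and Cx3cl1 and Cx3cr1 gave r = 0.161 and rho = -0.0343 (adjusted permutation p = 0.617 and 0.910). Without the 2 libraries farthest from the median of the ligand, these became r = -0.593 and -0.00667 (adjusted permutation p = 0.134 and 0.985). For Il34 and Csf1r the rank correlation was then rho = -0.682 (adjusted permutation p = 0.0453), opposite in sign to the r of 0.198 over all libraries.

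Between receptors the correlations were larger in size than those between ligand and receptor over all 17 libraries, a difference that was not tested. Csf1r and Cx3cr1 gave r = 0.762 and rho = 0.846 (adjusted permutation p = 0.00064 and 0.00112), and r = 0.725 without the 2 libraries farthest from the median of Csf1r, where the adjusted permutation p was 0.05, at the threshold. Csf1r and Trem2 gave r = 0.753 (adjusted permutation p = 0.0195) and rho = 0.623 (adjusted permutation p = 0.0541). This relation rested on few libraries: r was 0.505 without the 2 farthest (adjusted permutation p = 0.122) and 0.457 without CCI WT library 3. Trem2 and Tyrobp gave r = 0.685 and rho = 0.618 (adjusted permutation p = 0.0195 and 0.0541). Without the 2 farthest libraries r was 0.621 (adjusted permutation p = 0.0532). This relation too depended on single libraries. Its r did not pass without Sham KO library 4, Sham WT library 3 or CCI WT library 3 (adjusted permutation p = 0.0729, 0.0605 and 0.143). Without Sham KO library 4, which held the high Tyrobp value, rho was 0.476 (adjusted permutation p = 0.317). Csf1 with Trem2 gave r = 0.241 and rho = 0.145 (adjusted permutation p = 0.512 and 0.690), and Csf1 with Cx3cr1 gave r = 0.260 and rho = 0.186 (adjusted permutation p = 0.531 and 0.690). Without Sham KO libraries 1 and 2, Csf1 with Cx3cr1 gave r = 0.733 (adjusted permutation p = 0.0265), which has the same limit as the value for Csf1 and Csf1r without them.

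**Figure D4:**
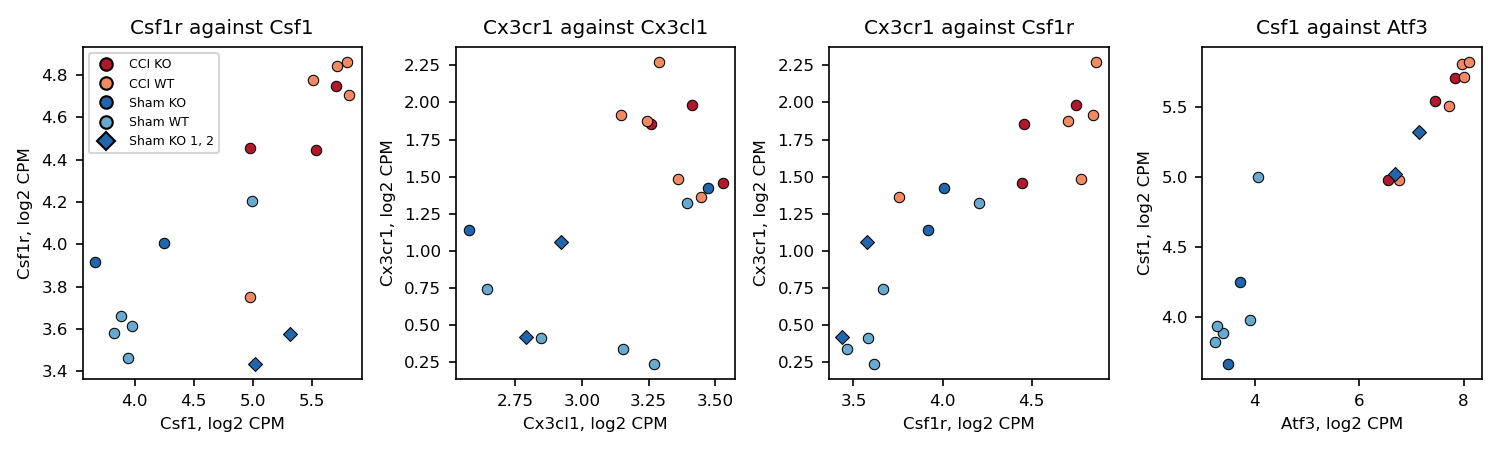
Each point is a library, coloured by group; axes are log2 CPM of the named genes, with Sham KO libraries 1 and 2 as diamonds. Those 2 libraries lie with the injured ones for Csf1 against Atf3 and apart from them for Csf1r against Csf1; Csf1r and Cx3cr1 rise together (r = 0.762 on deviations from group means).

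Across all 17 libraries, with the groups left in, the protein-coding genes whose log2 CPM was most like that of Csf1 were Atf3 (r = 0.951), Crybg1 (0.946), Adam8 (0.941), Fgf3 (0.937) and Plin2 (0.936), out of 13536 genes ranked. Atf3 is the textbook marker of injured sensory neurons. Those most like Il34 were Itgb8 (r = 0.936), Col5a3 (0.927), Galnt2 (0.915), Cdkn1a (0.910) and Lrrc17 (0.910). Those most like Csf1r were Smad1 (r = 0.902), Tmt1a3 (0.896), Fam171b (0.884), Stim2 (0.872) and Grb10 (0.871). Those most like Cx3cl1 were Mpeg1 (r = 0.849), the pore-forming protein of macrophages, Sephs1 (0.826), Zmynd15 (0.791), Ppp4r3a (0.780) and Fbxo46 (0.776). These values are a description, since the libraries share the split between injury and sham.

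Whether the label of microglia-type receptors fits the tissue was checked on 12 genes enriched in microglia, of which 10 passed the filter on low counts. Sall1, the transcription factor that defines microglia among macrophages, was at 0 CPM in CCI KO and averaged 0.139 CPM in CCI WT, 0.106 CPM in Sham KO and 0.110 CPM in Sham WT. Tmem119 averaged 5.22, 6.10, 3.34 and 6.24 CPM in the same 4 groups, and P2ry12 averaged 9.43, 11.96, 7.33 and 7.89 CPM. Microglia live in the central nervous system, and bulk libraries of a ganglion do not show which cell carries a receptor or whether Csf1 came from neurons. The members are therefore called by their gene names here. After injury in wild type, 2 of the 10 tested genes of this list rose, the purinergic receptor P2ry12 (log2 fold change 0.60 ± 0.15, edgeR adjusted p = 0.0210) and Gpr34, a lysophosphatidylserine receptor (1.62 ± 0.37, edgeR adjusted p = 0.0134). The list's median was 0.23. With 1 library left out the count was 0 to 2: it was 0 without CCI WT library 5 and 1 without Sham WT library 2 or 4 or CCI WT library 2 or 4.

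Macrophage markers were higher in part. Of 22 tested, 4 rose after injury in wild type: Ms4a7 (log2 fold change 1.92 ± 0.26, edgeR adjusted p = 0.000118), the lysosomal protease Ctss (1.47 ± 0.36), the complement gene C1qc (1.06 ± 0.25) and Adgre1, which encodes F4/80 (0.82 ± 0.20), the last 3 at edgeR adjusted p = 0.0423, 0.0346 and 0.0202. The list's median was 0.57, beside -0.0067 over all genes. The count was 2 without Sham KO libraries 1 and 2, in a fit that called 3.86% of genes and the same 5 members, 7 without Sham WT library 1, 5 without CCI WT library 3, and 1 to 7 over the fits that each left out 1 library. Ptprc (CD45, the marker of all leukocytes) gave -0.12 ± 0.68 and Itgam (CD11b) -0.13 ± 0.41, neither of which passed.

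**Figure D5:**
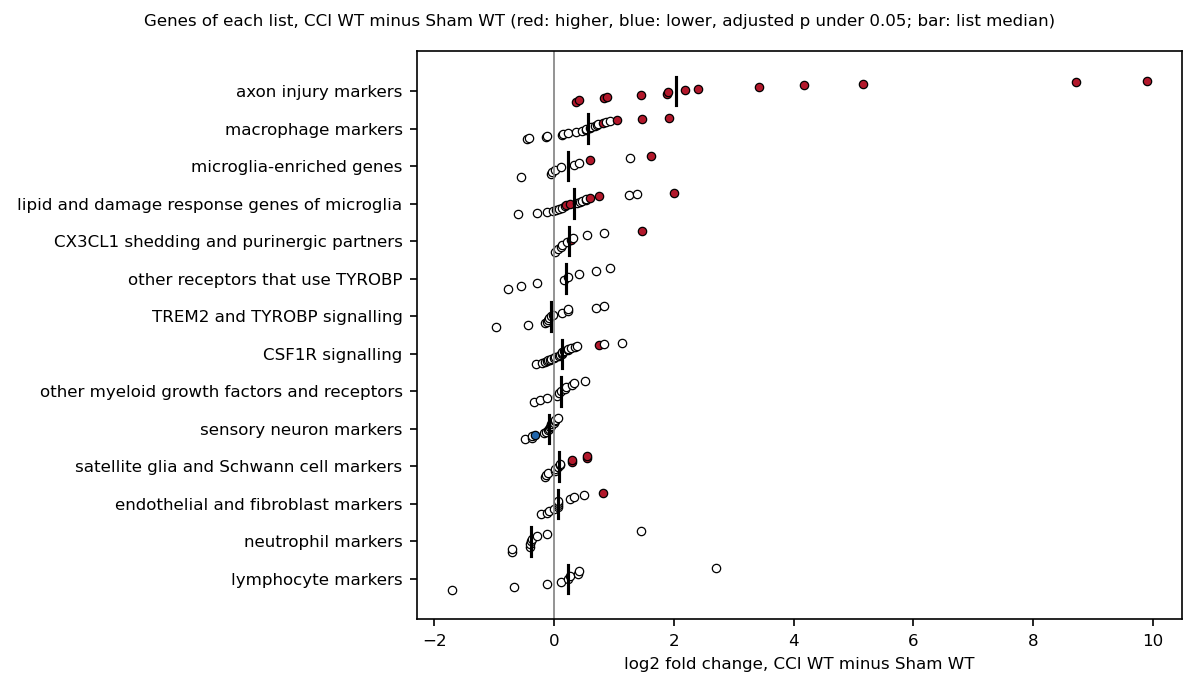
Log2 fold changes between CCI WT and Sham WT (x axis) of the genes in 14 lists (y axis), red where higher and blue where lower at an edgeR adjusted p under 0.05, with a bar at each list's median. All 14 tested axon injury markers are higher, 4 of 22 macrophage markers are higher, and no gene of TREM2 and TYROBP signalling is called.

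Of 23 genes of CSF1R signalling downstream of the receptor, 1 rose after injury in wild type, the cyclin gene Ccnd1, which growth factors induce (log2 fold change 0.76 ± 0.17, edgeR adjusted p = 0.0118), and the list's median was 0.13. This is to be read beside the 2.34% of all genes that passed as higher, and the count was 0 without CCI WT library 5. Of 13 genes of TREM2 and TYROBP signalling, among them the kinase gene Syk, none passed and the median was -0.04. Of 8 other receptors that use TYROBP, none passed and the median was 0.20. Of 11 tested receptors and ligands of other myeloid growth factor systems, none passed and the median was 0.11. Csf2 and Csf3, the other colony-stimulating factors, did not reach the filter on low counts.

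Genes that microglia raise with TREM2 in damage and lipid uptake were partly higher. After injury in wild type 5 of 20 tested rose and none fell: Lgals3, the lectin galectin-3 (log2 fold change 2.001 ± 0.23, edgeR adjusted p = 0.000412), Cd63 (0.75 ± 0.10, edgeR adjusted p = 0.000332), the receptor tyrosine kinase gene Axl (0.61 ± 0.15, edgeR adjusted p = 0.0356), Fabp5 (0.27 ± 0.07, edgeR adjusted p = 0.0248) and the lysosomal protease gene Ctsb (0.20 ± 0.04, edgeR adjusted p = 0.00723). Sensory neurons and glia express several of these genes as well. The list's median was 0.33. With 1 library left out the count was 3 to 7, with 3 without CCI WT library 2 or 5, and it was 4 to 9 under the other settings. Apoe gave 0.13 ± 0.05 and did not pass (edgeR adjusted p = 0.168).

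Around the CX3CL1 axis, 2 of 10 genes rose after injury in wild type, Ctss, whose protease sheds CX3CL1, with the value given above, and Adam10, which cleaves CX3CL1 without stimulation (0.29 ± 0.08, edgeR adjusted p = 0.0456). The median was 0.25. The count of 2 was not stable: with 1 library left out it was 0 or 1 in 15 of the 17 fits, 2 without Sham KO library 4 and 3 without CCI WT library 3, and without Sham KO libraries 1 and 2 it was 1. In the genotype comparisons 3 of the 10 were lower in libraries labelled knockout averaged over both surgeries, where 1.86% of genes were lower. They were Adam17, the inducible sheddase, at -0.70 ± 0.09 (edgeR adjusted p = 5.82e-05), the ATP-gated channel gene P2rx7 at -0.72 ± 0.13 (edgeR adjusted p = 0.00229) and Adam10 at -0.34 ± 0.06 (edgeR adjusted p = 0.00209). This count of 3 was the same in each fit that left out 1 library. Adam17 averaged 21.1 CPM in CCI KO, 35.2 CPM in CCI WT, 17.8 CPM in Sham KO and 28.1 CPM in Sham WT, and the genotypes did not overlap after either surgery. Of all 23972 genes tested, 498 were lower without overlap in sham ganglia and 1047 (4.37%) after injury.

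The markers of other cells in the ganglion were set beside these values. All 14 tested axon injury markers rose after injury in wild type (median 2.04). In the libraries labelled knockout 0 of 14 passed with all libraries, where 0.0834% of all genes did. Without Sham KO libraries 1 and 2, 11 of 14 passed, where 0.578% of all genes did. Those 2 libraries were set apart by Atf3, which is 1 of the 14, so the higher count follows in part from that choice. Of 15 sensory neuron markers none rose and 1 fell after injury in wild type, and the median was -0.08. Of 12 markers of satellite glia and Schwann cells 4 rose, among them Cdh19 (0.56 ± 0.11), Fabp7 (0.55 ± 0.13) and Sox10 (0.30 ± 0.06), with edgeR adjusted p = 0.00565, 0.0391 and 0.00833. The count was 2 without Sham WT library 1, 2 or 4 or CCI WT library 4 or 5, and 3 or 4 without any of the other libraries. Neutrophil markers (0 of 9, median -0.39) and lymphocyte markers (0 of 9, median 0.23) did not pass, and 1 of 12 endothelial and fibroblast markers rose, Cldn5 (0.81 ± 0.10, edgeR adjusted p = 3.5e-05).

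Averaged over both surgeries, 5 of the 12 glial markers were lower in the libraries labelled knockout, among them the myelin gene Pmp22 (log2 fold change -0.98 ± 0.09, edgeR adjusted p = 2.14e-05), a count that held with each library left out. The summed level of the 12 markers was 7589 to 8810 CPM in CCI KO and 12260 to 16240 CPM in CCI WT, and 6313 to 7574 CPM in Sham KO against 11290 to 15460 CPM in Sham WT. The part of this in the lower Adam17, Adam10 and P2rx7 levels was not tested.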

How the data were processed

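RNA from 17 libraries of mouse dorsal root ganglia was isolated (PicoPure) and amplified by SMART-Seq v4, an unstranded low-input method, per the labels' protocols. The authors used bcl2fastq 2.20.0.422, STAR 2.7.11a and the build GRCm39, per the submitters' processing notes. The deposited tables hold unnormalized read counts for each Ensembl gene; the sources used here give no counter version, strand setting or annotation release. Its summary lines, with 4.03 to 4.55% of counts outside genes and 7.63 to 8.17% ambiguous, were left out. Symbols came from GENCODE M39 for 78168 of 78298 identifiers.

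Counts were filtered (filterByExpr, at least 10 counts), scaled by TMM and fitted with a mean per group in edgeR 4.0.16 (quasi-likelihood test, R 4.3.3), with Benjamini-Hochberg adjustment over 23972 genes and a threshold of 0.05. Log2 CPM used a prior count of 2. DESeq2 1.42.0, limma 3.58.1 (voom with weights), other filters, scaling, a replicate block and each library left out were alternatives; their effect on the list counts was examined after seeing the data. The procedure was tested on simulated data. Correlations used SciPy 1.17.1. No 2 libraries of a group agreed within sampling noise (mean chi-square per gene 15.4 to 72.5).

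The members and lists were chosen with earlier results of these data known. Named genes are the members, up to 4 genes of a list with the smallest p or all called genes where these are 6 or fewer, injury markers, Kcnk1, and the 5 genes most like each ligand and Csf1r. Genes named outside that rule were chosen after their values were seen. Single results for some genes and 1 sequence are not reported here.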

Additional observations from a re-analysis of the deposited data

Results flagged for a closer look

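Of 21 groups of 4 or 5 libraries checked (7 members, 3 groups), 4 held a library far from the others, where chance alone gives about 1 in 20. Csf1 in Sham WT library 1, at 31.9 CPM, and Csf1r in the same library, at 18.4 CPM, were far above the other Sham WT libraries; the gap to the nearest was 0.907 and 0.779 of the group's range. Csf1r in CCI WT library 3, at 13.45 CPM, was far below the other CCI WT libraries, with a gap of 0.811 of the range. Tyrobp in Sham KO library 4, at 23.8 CPM, was far above the other Sham KO libraries, with a gap of 0.940 of the range. The macrophage marker sums of these libraries are given beside the results, with the neutrophil and lymphocyte marker sums of the last. Their part was not tested.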

How the results depend on the processing

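The 5 members called after injury in wild type stayed higher in every alternative, and 4 or 5 of them passed when each library was left out; Csf1 alone lost its call there (log2 fold change 1.31 to 1.69). Genes called in this comparison numbered 1301 without a low-count filter, 1128 by DESeq2 and 1192 by limma-voom, and 423 to 998 with 1 library left out. After injury in libraries labelled knockout, the 20 genes called became 11 with DESeq2 size factors, 224 without a filter, 123 by DESeq2, 31 by limma-voom, 147 without Sham KO libraries 1 and 2, 4 when only the groups compared were fitted, and 0 to 43 with 1 library left out; 1 member, Csf1r (0.80 in both), passed without a filter and by DESeq2, and 0 to 1 with 1 library left out. For genotype in sham the 240 genes became 702 without a filter, 629 by DESeq2, 37 without Sham KO libraries 1 and 2, 69 with only the groups compared, and 88 to 665 with 1 library left out. After injury the 164 genes became 452, 405 (DESeq2), 439 (limma-voom), 407 (only the groups compared) and 18 to 229. For the interaction, 77 genes passed without a filter, 21 by DESeq2, 4 by limma-voom and 0 to 7 with 1 library left out. For the mean genotype effect the 612 genes became 1112 without a filter, 1027 by DESeq2, 1074 by limma-voom, 404 without Sham KO libraries 1 and 2, and 396 to 995 with 1 library left out. The causes were not tested.

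Replicate numbers did not pair the libraries throughout: same-numbered libraries' deviations correlated between -0.013 and 0.118, and 6 of 17 correlated best with their own number. Libraries numbered 3 correlated positively in every pair of groups, from 0.034 to 0.118, while numbers 1, 2 and 4 each gave values of both signs. What the libraries numbered 3 share was not tested. With the number as a replicate block, 46 genes were called after injury in knockout, 139 for genotype in sham, 91 after injury and 402 for the mean genotype effect, and the mean genotype effect turned to 0.0215 for Csf1r and 0.0020 for Cx3cl1.

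Signs that turned were all of uncalled values. By limma-voom, Tyrobp was 0.34 after injury in knockout, -0.0148 for genotype in sham and -0.1073 for the mean genotype effect, where Trem2 was -0.0583; Csf1r was -0.0562 for genotype in sham. Without Sham KO libraries 1 and 2, genotype in sham gave -0.21 for Csf1 and 0.0127 for Cx3cl1, the interaction gave 0.0543 for Csf1, and the mean genotype effect gave -0.18 for Csf1, 0.0788 for Csf1r and 0.0605 for Cx3cl1. The mean genotype effect of Cx3cl1 was 0.0037 with DESeq2 size factors, 0.0018 with a stricter filter and 0.0041 by DESeq2. With 1 library left out, genotype after injury ran from -0.31 to 0.0319 for Csf1 and -0.15 to 0.11 for Cx3cr1; genotype in sham from -0.0735 to 0.18 for Csf1r, -0.32 to 0.0113 for Cx3cl1 and -0.36 to 0.85 for Tyrobp; injury in knockout from -0.54 to 0.67 for Tyrobp; the interaction from -1.09 to 0.12 for Tyrobp; and the mean genotype effect from -0.10 to 0.0492 for Csf1r, -0.11 to 0.0564 for Cx3cl1, -0.0853 to 0.0979 for Trem2 and -0.30 to 0.31 for Tyrobp.

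Without the 2 farthest libraries, the correlations were -0.593 (Il34 and Csf1r), -0.007 (Cx3cl1 and Cx3cr1), 0.621 (Trem2 and Tyrobp) and 0.505 (Csf1r and Trem2); without Sham KO libraries 1 and 2 they were 0.807 (Csf1 and Csf1r) and 0.733 (Csf1 and Cx3cr1). With 1 library left out they ran from -0.41 to 0.299 (Il34 and Csf1r), -0.077 to 0.252 (Cx3cl1 and Cx3cr1), 0.56 to 0.744 (Trem2 and Tyrobp), 0.457 to 0.805 (Csf1r and Trem2), -0.052 to 0.474 (Csf1 and Cx3cr1) and -0.02 to 0.329 (Csf1 and Trem2). Low counts limit Trem2, at 30 to 260 counts a library.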

Other observations

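The genes most like Tyrobp across the 17 libraries, named after their values were seen, were Lyz1 (r = 0.954), Lyz2 (0.936), Cyba (0.926), Arhgap45 (0.925) and Gmfg (0.912). Lyz1 and Lyz2 encode lysozymes of myeloid cells and share near-identical sequence, so reads may be split between them. Those most like Trem2 were Cdkn2b (r = 0.896), Lgals3 (0.876), Acvr1 (0.865), Lmo1 (0.864) and Ctss (0.862). Those most like Cx3cr1 were Ehd4 (r = 0.865), Tmt1a3 (0.864), Ctss (0.858), Tmt1a2 (0.857) and Crybg1 (0.853). These are descriptions with no test, over libraries that share the split between injury and sham.

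Other exon overlaps with genes on the opposite strand, where unstranded reads could not be assigned, were 433 bases of Trem2 with Gm65654, 427 bases of Cx3cl1 with 1700121C10Rik, 159 bases of Csf1 with Gm40121 and 100 bases of Il34 with Vac14.

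In the lipid and damage response list, averaged over both surgeries, the libraries labelled knockout had lower Apoe (log2 fold change -0.23 ± 0.04, edgeR adjusted p = 0.00054) and Igf1 (-0.89 ± 0.17, edgeR adjusted p = 0.0055), a ligand that macrophages can supply, and higher Ctsd (0.19 ± 0.04, edgeR adjusted p = 0.00426) and Ctsl (0.27 ± 0.06, edgeR adjusted p = 0.0272), both lysosomal proteases. These were 4 of 20 tested, in a comparison where 2.55% of all genes passed, and without Sham KO libraries 1 and 2, 1 gene of the list was higher and 2 were lower.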
